A study of Mus musculus with 12 samples.

Results

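A set of 10 genes of transforming growth factor beta (TGF-β) signalling were followed through the silencing of *Dusp4* in mouse liver cancer cells. They were the ligand genes *Tgfb1*, *Tgfb2* and *Tgfb3*, the ligand-binding gene *Ltbp1*, the receptor genes *Tgfbr2*, *Acvr1b* and *Acvr2a*, and the signal transducers *Smad2*, *Smad3* and *Smad4*. They were taken by name, all 10 were on the panel among its 770 gene probes, and all 10 were above the detection floor and tested in every comparison. The samples were 12 NanoString® measurements, 3 replicates in each of 4 groups, and 2 related cell lines were used. AKT/NRAS grew from a hepatocellular carcinoma raised in a mouse by hydrodynamic injection of myristoylated AKT and NRAS G12V constructs. AKT Cre/NRAS is the derivative in which Cre recombinase removed the floxed AKT construct, so both lines carried NRAS G12V. Each line received a *Dusp4* siRNA pool (siRNA) or a control pool (SCR), was transfected again and was then harvested. Both lines go back to 1 parental cell line. *Dusp4* encodes a phosphatase that inactivates MAP kinases. The methods call the replicates biological, and nothing ties them to separate tumours, so the p-values measure the spread within each line.

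TGF-β is secreted in a latent complex that latent TGF-β binding proteins such as LTBP1 tether to the extracellular matrix. Released ligand binds the type II receptor TGFBR2, and activins bind ACVR2A, which recruits the type I receptor ACVR1B. The activated type I receptors phosphorylate SMAD2 and SMAD3, which join SMAD4 and move to the nucleus to regulate transcription. In the liver the pathway restrains hepatocyte growth and drives fibrosis, and in liver tumours it is known in both growth-limiting and invasion-promoting roles.

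Promoter sequence from RefSeq on GRCm38.p6 was used for 7 of the 10 genes (not *Tgfb3*, *Smad2* or *Smad4*), in 8 windows of 250 bases that end at the transcription start. The windows of *Tgfb1* and *Smad3*, the genes with the largest rises after silencing in AKT Cre/NRAS, and of *Tgfb2* and *Ltbp1*, which were lower in AKT Cre/NRAS, are printed 5′ to 3′ on the strand of the gene. Capitals mark the letters of 5 motifs searched on both strands: the AP-1 motif TGANTCA, the SMAD box GTCTAGAC, the shorter SMAD motif CAGAC, the Sp1 box GGGCGG and the TATA box TATAAA.
*Tgfb1*, chr7:25686752-25687001, plus strand: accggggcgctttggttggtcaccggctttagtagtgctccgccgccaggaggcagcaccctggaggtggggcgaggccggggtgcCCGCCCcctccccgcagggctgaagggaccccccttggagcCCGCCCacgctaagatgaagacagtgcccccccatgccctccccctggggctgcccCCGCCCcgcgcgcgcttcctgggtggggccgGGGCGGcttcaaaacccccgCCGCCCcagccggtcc
*Smad3*, chr9:63757995-63758244, minus strand: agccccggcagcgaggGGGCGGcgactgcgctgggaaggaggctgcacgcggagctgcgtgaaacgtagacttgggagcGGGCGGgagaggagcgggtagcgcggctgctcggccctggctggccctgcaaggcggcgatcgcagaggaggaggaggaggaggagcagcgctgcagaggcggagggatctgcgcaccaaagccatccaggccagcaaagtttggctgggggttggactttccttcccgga
*Tgfb2*, chr1:186705990-186706239, minus strand: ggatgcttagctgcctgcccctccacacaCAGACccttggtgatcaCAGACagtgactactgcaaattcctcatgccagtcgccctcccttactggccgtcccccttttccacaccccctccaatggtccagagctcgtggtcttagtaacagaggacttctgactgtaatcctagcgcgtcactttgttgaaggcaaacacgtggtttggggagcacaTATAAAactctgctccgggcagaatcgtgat
*Ltbp1*, upstream start, chr17:75005279-75005528, plus strand: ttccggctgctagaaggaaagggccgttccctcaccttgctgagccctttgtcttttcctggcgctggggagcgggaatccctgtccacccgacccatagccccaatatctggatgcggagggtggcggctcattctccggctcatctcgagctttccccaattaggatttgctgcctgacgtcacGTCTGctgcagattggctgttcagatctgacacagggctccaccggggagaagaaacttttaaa
*Ltbp1*, downstream start, chr17:75178531-75178780, plus strand: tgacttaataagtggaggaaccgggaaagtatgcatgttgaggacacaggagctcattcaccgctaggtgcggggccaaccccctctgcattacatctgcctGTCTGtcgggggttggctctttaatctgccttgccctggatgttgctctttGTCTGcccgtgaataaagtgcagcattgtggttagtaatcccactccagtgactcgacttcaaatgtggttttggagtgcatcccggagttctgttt

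The *Tgfb1* window held 5 Sp1 boxes and the *Smad3* window 2, and neither held a match to the other motifs. Sp1 boxes were also found in the windows of *Acvr1b* (4) and *Acvr2a* (2). They occurred in 32.7% of the 32851 promoter windows of this length in the genome table. The letters CAGAC, on either strand, were present in the windows of *Tgfb2*, *Ltbp1*, *Tgfbr2* and *Acvr2a*, against 42.2% of all windows. *Tgfb2* alone among the 7 genes held a TATA box, which 12.4% of all windows held. No AP-1 motif and no full SMAD box was found in the 8 windows, against 6.75% and 0.167% of all windows. G and C made up 75.2% of the *Tgfb1* window and 69.2% of the *Smad3* window, against 53.6% for *Tgfb2* and a median of 52.4% over all windows. These matches describe letters only.

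Between 641790 and 1081646 barcode counts were recovered per sample, and 252 to 293 genes per sample stood at the floor. A normalized count below is the deposited signal scaled by reference genes, and log2 fold changes were taken on log2(normalized count + 1). *Dusp4* fell in both lines, with a log2 fold change of -1.73 in AKT/NRAS (adjusted p = 1.13e-06) and of -0.45 in AKT Cre/NRAS (adjusted p = 0.0178), so the silenced gene remained at 3769 to 4174 normalized counts in the siRNA samples of AKT Cre/NRAS. As deposited, the *Dusp4* values of AKT Cre/NRAS overlapped, at 7180, 8290 and 4154 under SCR and 3913, 4527 and 4548 under siRNA. The separation of these samples thus depended on the scaling. The *Akt1* probe read 18170 to 20228 in AKT/NRAS and 337 to 587 in AKT Cre/NRAS. The log2 ratio of the reference genes *Rpl19* to *Polr2a* was 3.81 to 3.92 in AKT/NRAS, 4.72 to 5.03 in AKT Cre/NRAS siRNA and 5.48 to 6.88 in AKT Cre/NRAS SCR. All 10 genes, and also *Dusp4* and *Akt1*, were lowest, within the AKT Cre/NRAS SCR group, in replicate 3, the sample with the highest of these ratios. Within AKT Cre/NRAS siRNA 8 of the 10 were lowest in replicate 3, which had the highest ratio of that group (5.03). The share of the panel lowest in these samples was not counted. The genes *Sox9*, *Prom1* and *Spp1*, which mark biliary and progenitor cells, were present. Their summed level was 15321 to 19906 in AKT/NRAS and 101972 to 161827 in AKT Cre/NRAS. Of other cell types, the fibroblast genes *Pdgfrb*, *Col1a2* and *Col3a1*, the leukocyte gene *Csf1r* and the endothelial gene *Kdr* stood at the floor in every sample. Other markers did not: the leukocyte gene *Cd14* read 1323 to 1790 over the 12 samples, and the endothelial gene *Flt1* read 1260 to 1403 in AKT/NRAS SCR, 933 to 1007 in AKT/NRAS siRNA, 239 to 369 in AKT Cre/NRAS SCR and 387 to 495 in AKT Cre/NRAS siRNA. The summed level of the fibroblast markers, over values above the floor, was 56.6 to 104 in AKT/NRAS, 269 to 382 in AKT Cre/NRAS SCR and 415 to 513 in AKT Cre/NRAS siRNA, from *Pdgfra* and *Col1a1* alone of 5 on the panel. The part of the *Rpl19* to *Polr2a* ratio and of these markers in the results was not tested. In such bulk samples, fewer cells that express a gene and less RNA per cell cannot be told apart.

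*Tgfb1*, the most widely expressed of the ligand genes, was lowest in AKT Cre/NRAS SCR. AKT/NRAS samples held 1142, 1323 and 1215 normalized counts of it under SCR and 1099, 1049 and 1046 under siRNA. AKT Cre/NRAS samples held 825, 733 and 544 under SCR and 1321, 1165 and 1037 under siRNA. The SCR samples of AKT Cre/NRAS lay below all 9 others, and the ranges of AKT Cre/NRAS siRNA overlapped those of both AKT/NRAS groups. In AKT Cre/NRAS *Tgfb1* rose by 0.76 on the log2 scale after silencing (SE 0.15, 1.69-fold, adjusted p = 0.00474). It fell by 0.20 in AKT/NRAS (adjusted p = 0.0479). Under SCR it was lower in AKT Cre/NRAS than in AKT/NRAS, with a log2 fold change of -0.83 (adjusted p = 0.000896). Under siRNA the lines differed by 0.13, with a 95% interval from -0.06 to 0.33 that includes no difference.

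*Tgfb2* kept a gap between the lines under both treatments. It read 1041, 1046 and 995 under SCR and 1002, 1013 and 948 under siRNA in AKT/NRAS, and the ranges overlapped. In AKT Cre/NRAS it read 549, 508 and 450 under SCR and 645, 604 and 630 under siRNA, with no overlap. The rise in AKT Cre/NRAS was 0.32 on the log2 scale (SE 0.10, adjusted p = 0.0279). The log2 fold change between the lines was -1.04 under SCR (adjusted p = 1.09e-05) and -0.66 under siRNA (adjusted p = 7.05e-06).

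*Tgfb3* and *Ltbp1* showed the widest separation of the lines. *Tgfb3* read 939, 921 and 899 under SCR and 932, 961 and 951 under siRNA in AKT/NRAS, against 127, 133 and 109 under SCR and 145, 153 and 143 under siRNA in AKT Cre/NRAS. Its highest group mean was 7.69 times its lowest. The log2 fold change between the lines was -2.89 under SCR (SE 0.10, adjusted p = 4.43e-08) and -2.68 under siRNA (SE 0.05, adjusted p = 9.57e-09). Its response to silencing did not pass the test in either line, at 0.26 in AKT Cre/NRAS (95% interval -0.02 to 0.53, adjusted p = 0.113) and 0.04 in AKT/NRAS (adjusted p = 0.466). The AKT Cre/NRAS siRNA samples nevertheless all lay above the SCR samples of that line.

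*Ltbp1*, whose product holds latent TGF-β in the matrix, read 1432, 1459 and 1303 under SCR and 1409, 1460 and 1348 under siRNA in AKT/NRAS. In AKT Cre/NRAS it read 223, 185 and 152 under SCR and 276, 268 and 248 under siRNA. All AKT Cre/NRAS samples were far below all AKT/NRAS samples, with a log2 fold change between the lines of -2.91 under SCR (SE 0.14, adjusted p = 2.69e-07) and -2.41 under siRNA (SE 0.06, adjusted p = 2.80e-08). Silencing raised *Ltbp1* by 0.51 in AKT Cre/NRAS (SE 0.15, adjusted p = 0.0196). In AKT/NRAS the change was 0.01, with a 95% interval from -0.11 to 0.13.

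**Figure D1:**
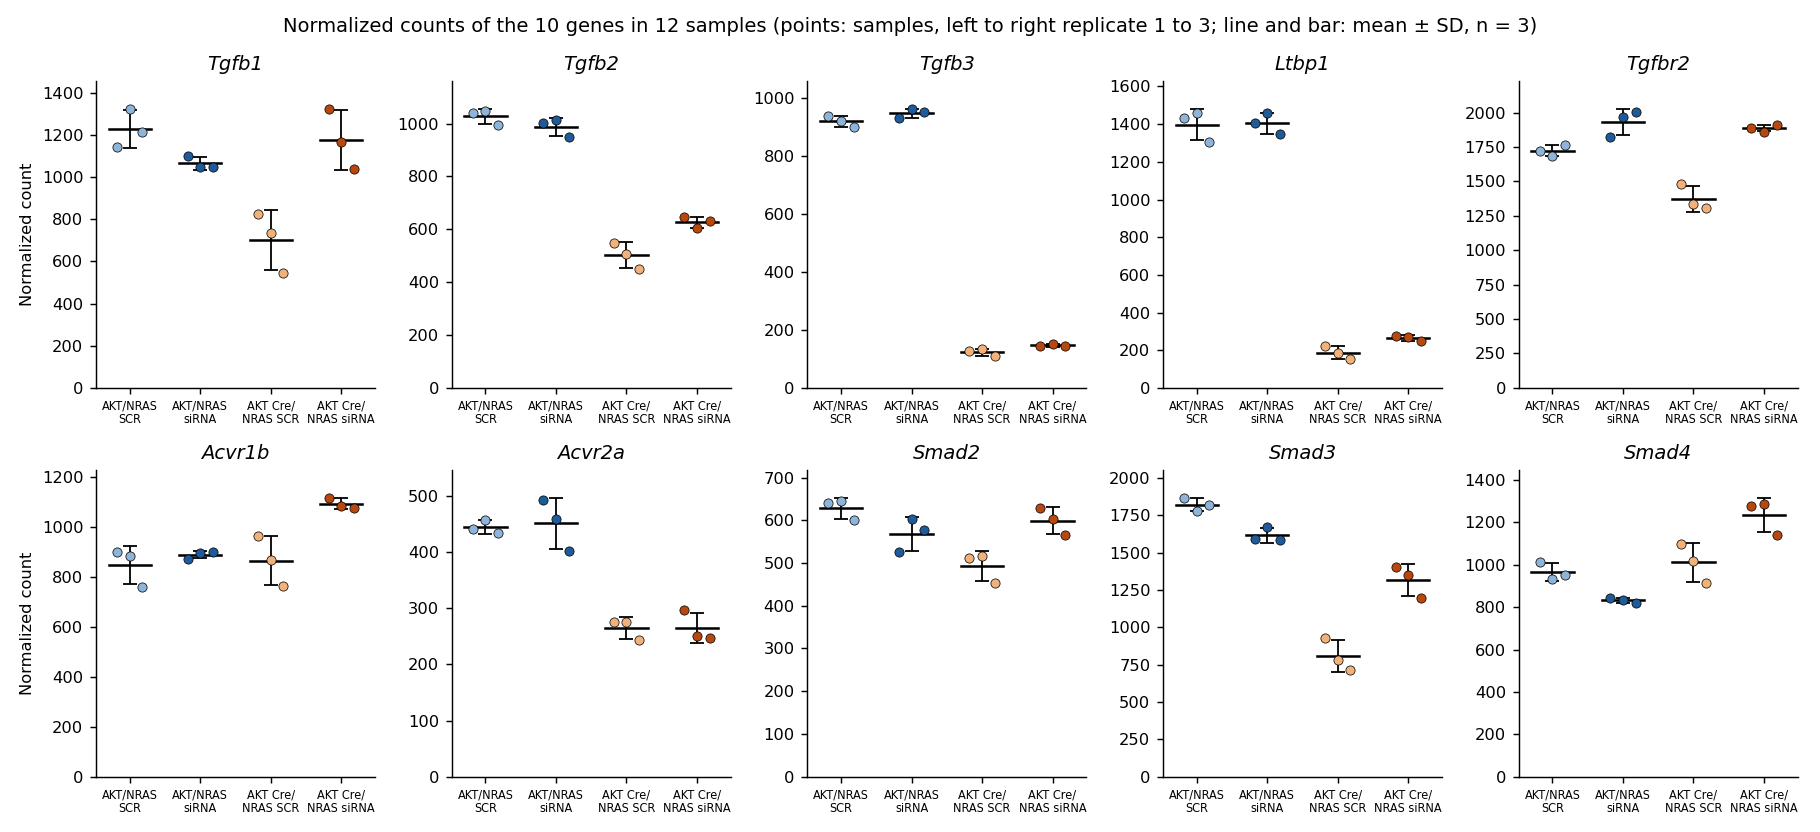
Normalized counts (vertical axes from 0, 1 panel per gene) of the 10 genes in the 4 groups, with a point per sample and the mean ± SD of 3 replicates. *Tgfb3* and *Ltbp1* separate the lines, whereas *Tgfb1* and *Smad3* are lowest in AKT Cre/NRAS SCR and higher in the siRNA samples of that line.

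*Tgfbr2*, the type II receptor for TGF-β, read 1722, 1687 and 1763 under SCR and 1825, 1972 and 2002 under siRNA in AKT/NRAS. It read 1480, 1333 and 1309 under SCR and 1890, 1862 and 1909 under siRNA in AKT Cre/NRAS. The receptor was the only one of the 10 genes that rose after silencing in both lines, by 0.16 in AKT/NRAS (SE 0.04, adjusted p = 0.0364) and by 0.46 in AKT Cre/NRAS (SE 0.08, adjusted p = 0.00355). The lines differed under SCR, with a log2 fold change of -0.33 (adjusted p = 0.00352). Under siRNA the difference was -0.03, with a 95% interval from -0.13 to 0.07.

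*Acvr1b*, the activin type I receptor, read 899, 883 and 761 under SCR and 875, 896 and 900 under siRNA in AKT/NRAS, where the ranges overlapped. It read 964, 869 and 766 under SCR and 1119, 1087 and 1077 under siRNA in AKT Cre/NRAS, where they did not. The rise in AKT Cre/NRAS was 0.34 (SE 0.10, adjusted p = 0.0200). The lines differed by 0.03 under SCR (95% interval -0.22 to 0.28), and *Acvr1b* was higher in AKT Cre/NRAS under siRNA by 0.30 (adjusted p = 0.000134).

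*Acvr2a*, the activin type II receptor, did not pass for silencing in either line. It read 442, 458 and 435 under SCR and 493, 460 and 402 under siRNA in AKT/NRAS, and 276, 276 and 243 under SCR and 297, 252 and 247 under siRNA in AKT Cre/NRAS. The siRNA and SCR samples overlapped in both lines. In AKT Cre/NRAS the change was -0.0019, with a 95% interval from -0.27 to 0.26, and in AKT/NRAS it was 0.02, from -0.16 to 0.20. The gap between the lines was -0.75 under SCR (adjusted p = 8.31e-05) and -0.77 under siRNA (adjusted p = 0.000299).

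*Smad3* differed from *Smad2*, although both encode receptor-activated transducers. *Smad3* read 1868, 1779 and 1819 under SCR and 1590, 1674 and 1581 under siRNA in AKT/NRAS, and 927, 783 and 712 under SCR and 1403, 1348 and 1194 under siRNA in AKT Cre/NRAS. No range of the 4 groups overlapped another, and the order from low to high was AKT Cre/NRAS SCR, AKT Cre/NRAS siRNA, AKT/NRAS siRNA and AKT/NRAS SCR. It rose by 0.71 in AKT Cre/NRAS (SE 0.11, 1.63-fold, adjusted p = 0.00329) and fell by 0.17 in AKT/NRAS (SE 0.04, adjusted p = 0.0176). The log2 fold change between the lines was -1.18 under SCR (adjusted p = 1.01e-05) and -0.30 under siRNA (adjusted p = 0.00351).

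*Smad2* stayed within a narrow range, with a highest group mean 1.27 times its lowest. It read 640, 645 and 600 under SCR and 525, 603 and 577 under siRNA in AKT/NRAS, and 511, 517 and 453 under SCR and 628, 602 and 566 under siRNA in AKT Cre/NRAS. It rose by 0.28 in AKT Cre/NRAS (SE 0.10, adjusted p = 0.0386). In AKT/NRAS the change was -0.15 (adjusted p = 0.161), and the lines differed under SCR by -0.35 (adjusted p = 0.00533) but by 0.08 under siRNA (95% interval -0.08 to 0.23).

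*Smad4*, the partner that both SMAD2 and SMAD3 join, fell in AKT/NRAS and rose in AKT Cre/NRAS under the reference gene scaling used here. AKT/NRAS samples read 1015, 933 and 951 under SCR and 845, 832 and 821 under siRNA, a fall of 0.21 (SE 0.04, adjusted p = 0.0165). AKT Cre/NRAS samples read 1099, 1019 and 914 under SCR and 1279, 1286 and 1140 under siRNA, where it rose by 0.29 (SE 0.10, adjusted p = 0.0329). The lines did not separate under SCR (0.06, 95% interval -0.14 to 0.26), and under siRNA *Smad4* was higher in AKT Cre/NRAS by 0.57 (adjusted p = 4.09e-05). The directions on silencing depended on the scaling: with the values as deposited the change was 0.20 in AKT Cre/NRAS and 0.12 in AKT/NRAS, with neither passing, and with median re-centring it was -0.06 (adjusted p = 0.463) and -0.16 (adjusted p = 0.0380).

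Silencing in AKT Cre/NRAS raised 8 of the 10 genes and lowered none. The genes that did not pass were *Tgfb3* and *Acvr2a*. Over the panel 40.6% of 503 tested genes rose and 5.37% fell, and the siRNA and SCR samples did not overlap in 60% of the tested genes and in 9 of the 10. The median log2 fold change of the 10 was 0.33, beside 0.23 over all tested genes. *Tgfb1* and *Smad3* lay 0.53 and 0.48 above that panel median, at the 97.2 and 95.4 percentile of the tested genes. *Tgfb2*, *Tgfb3*, *Smad2*, *Smad4* and *Acvr1b* lay within 0.02 to 0.11 of it. With the values as deposited none of the 10 passed, and leaving out 1 sample gave 3 calls without siRNA replicate 1, siRNA replicate 2 or SCR replicate 2, 4 without siRNA replicate 3, 7 without SCR replicate 3 and 8 without SCR replicate 1. *Tgfb1*, *Smad3* and *Tgfbr2* passed in all 6 of these.

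Silencing in AKT/NRAS, where *Dusp4* itself fell further, changed 4 of the 10 genes. *Tgfbr2* rose, while *Tgfb1*, *Smad3* and *Smad4* fell. On the panel 5.44% of 496 tested genes rose and 11.9% fell, and the groups did not overlap in 34.7% of them and in 4 of the 10. The median log2 fold change was -0.02 over the 10 genes and -0.03 over all tested genes. The 3 falls were between 0.17 and 0.21 on the log2 scale and depended on the scaling: with the values as deposited *Tgfb1* (0.13), *Smad3* (0.16) and *Smad4* (0.12) were above 0, beside a panel median of 0.30, and did not pass, while the other genes but *Smad2* passed as higher, 6 in all. The calls were also few without single samples, at 0 without siRNA replicate 3, 3 without siRNA replicate 1 and 2 without any one of siRNA replicate 2 and the 3 SCR replicates, and with the replicate number as a block *Tgfb1* no longer passed (adjusted p = 0.0698).

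The comparison of the lines under SCR gave 8 of the 10 genes lower in AKT Cre/NRAS and none higher, the exceptions being *Acvr1b* and *Smad4*. The panel gave 28.9% of 515 tested genes higher and 48% lower, and 79.8% of them, beside 8 of the 10, did not overlap between the lines. The median of the 10 was -0.79, against -0.22 for all tested genes. Under siRNA 5 were lower (*Tgfb2*, *Tgfb3*, *Ltbp1*, *Acvr2a* and *Smad3*) and 2 were higher (*Acvr1b* and *Smad4*), where the panel gave 36.6% of 522 tested genes higher and 37.9% lower. The lines did not overlap in 76.6% of those genes and in 7 of the 10, and the medians were -0.17 for the 10 and -0.00053 for the panel. *Tgfb3* and *Ltbp1* were among the lowest 1.92 to 3.07 percent of tested genes in both comparisons. With the values as deposited, *Tgfb3*, *Ltbp1* and *Smad3* were the 3 that still passed under SCR, and *Tgfbr2* (0.18) and *Smad2* (0.16) lay above 0. With median re-centring and with quantile normalization 6 were lower and 2 higher under SCR, since *Acvr1b* (0.39, adjusted p = 0.00129, re-centred) and *Smad4* (0.42, adjusted p = 0.000193) passed as higher and *Tgfbr2* and *Smad2* did not pass, and with all 20 reference genes 7 were lower and 1, *Smad4*, higher. The comparison under SCR uses the same AKT Cre/NRAS SCR samples as the silencing comparison in that line.

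The response to silencing itself differed between the lines for 7 of the 10 genes, each with the larger log2 fold change in AKT Cre/NRAS. These were *Tgfb1* (0.96, adjusted p = 0.00331), *Smad3* (0.88, adjusted p = 0.00148), *Smad4* (0.50, adjusted p = 0.00334), *Ltbp1* (0.50, adjusted p = 0.0278), *Smad2* (0.42, adjusted p = 0.00862), *Tgfb2* (0.38, adjusted p = 0.0107) and *Tgfbr2* (0.30, adjusted p = 0.0120). *Acvr1b* (0.27, adjusted p = 0.0799), *Tgfb3* (0.21, adjusted p = 0.113) and *Acvr2a* (-0.02, 95% interval -0.31 to 0.28) did not pass. The interaction passed as positive in 40.6% of 525 tested genes and as negative in 4.76%, with a panel median of 0.25 beside 0.40 for the 10. *Tgfb1* and *Smad3* lay at the 98.1 and 96.2 percentile of the tested genes. With the values as deposited the panel median of the interaction was -0.13 and none of the 10 passed. The silencing was unequal, since the log2 fold change of *Dusp4* was -1.73 in AKT/NRAS and -0.45 in AKT Cre/NRAS. The interaction of *Dusp4* itself was 1.28 (adjusted p = 0.000728), the largest of all tested genes. The part of this inequality in the other interactions was not tested.

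**Figure D2:**
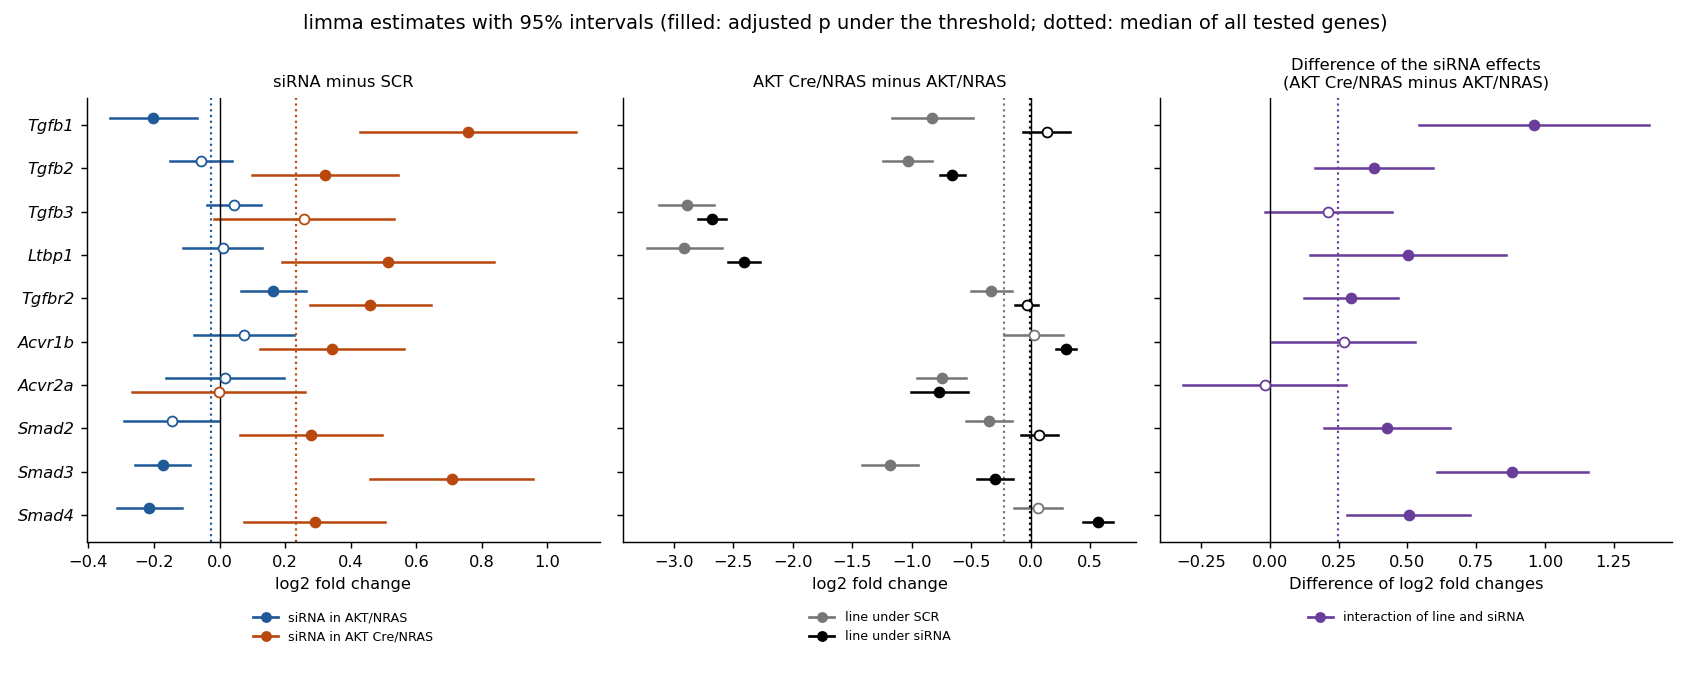
Estimates of limma for each gene with 95% intervals on a log2 axis, for silencing in each line, for the lines under each treatment and for the difference of the silencing effects. Filled points passed the adjusted threshold of 0.05, dotted lines mark the median of all tested genes, and 8 of the 10 orange points (AKT Cre/NRAS) are filled to the right of 0.

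Ratios of 2 genes within a sample carry no scaling, since any factor per sample cancels. With 3 samples against 3 the exact permutation test, two-sided, cannot go below p = 0.1, so none of the 28 comparisons of 7 ratios could pass, and the pairs were chosen after the values had been seen. The *Smad3* to *Smad2* ratio was 1.54 ± 0.07 (SD, n = 3) on the log2 scale in AKT/NRAS SCR and 1.51 ± 0.08 in AKT/NRAS siRNA. In AKT Cre/NRAS it was 0.70 ± 0.14 under SCR and 1.13 ± 0.05 under siRNA, with no overlap. The *Smad3* to *Smad4* ratio behaved alike, at 0.92 ± 0.03 and 0.96 ± 0.05 in AKT/NRAS and at -0.33 ± 0.07 under SCR and 0.09 ± 0.04 under siRNA in AKT Cre/NRAS. The AKT/NRAS samples lay above the AKT Cre/NRAS samples in both ratios.

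Among the ligand genes, the *Tgfb1* to *Tgfb3* ratio was 0.41 ± 0.12 under SCR and 0.17 ± 0.06 under siRNA in AKT/NRAS. It was 2.49 ± 0.19 and 2.99 ± 0.17 in AKT Cre/NRAS, so siRNA samples were higher than SCR samples in one line and lower in the other, without overlap in either. The *Tgfb1* to *Tgfb2* ratio was 0.46 ± 0.17 under SCR and 0.90 ± 0.16 under siRNA in AKT Cre/NRAS, again without overlap. The *Ltbp1* to *Tgfb3* ratio was 0.60 ± 0.06, 0.57 ± 0.06 and 0.59 ± 0.20 in AKT/NRAS SCR, AKT/NRAS siRNA and AKT Cre/NRAS SCR, whose ranges overlapped, and 0.84 ± 0.07 in AKT Cre/NRAS siRNA. In AKT Cre/NRAS the SCR samples (0.47 to 0.81) and the siRNA samples (0.79 to 0.93) overlapped as well. Relative to *Acvr2a*, both other receptors were higher in the siRNA samples of AKT Cre/NRAS without overlap, *Tgfbr2* by 0.46 (SE 0.10) and *Acvr1b* by 0.35 (SE 0.08).

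**Figure D3:**
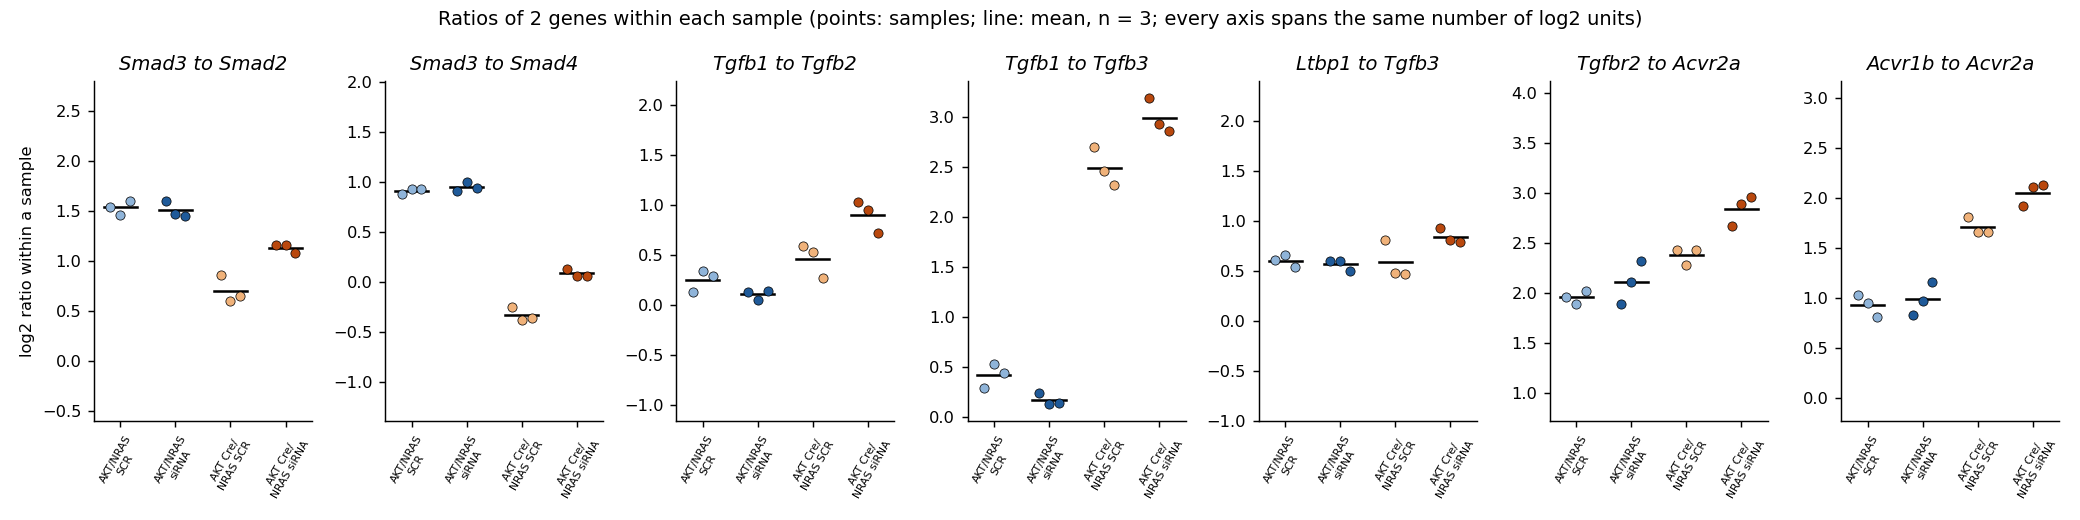
Log2 ratios of 2 genes within each sample (vertical axes, all of the same span), with a point per sample and a line at the mean of 3 replicates. The *Smad3* to *Smad2* ratio is 0.60 to 0.86 in the AKT Cre/NRAS SCR samples and 1.08 to 1.16 in the siRNA samples of that line, and the AKT/NRAS samples lie above both.

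The scaling shifted the silencing response in AKT Cre/NRAS. The panel median there ran from -0.10 with median re-centring to 0.67 with the 5 best-ranked reference genes, over 8 scalings. *Tgfb1* lay between 0.40 and 1.21 and *Smad3* between 0.35 and 1.16, above 0 in all 8, and they passed in 6 and 7 of them. *Ltbp1* and *Tgfbr2* were also above 0 in all 8 and passed in 4 and 6. *Tgfb2*, *Tgfb3*, *Acvr1b*, *Smad2* and *Smad4* changed sign in at least 1 scaling, and with median re-centring *Acvr2a* fell, by 0.36 (adjusted p = 0.0247). *Tgfb3* and *Ltbp1* were lower in AKT Cre/NRAS than in AKT/NRAS and passed in all 8 scalings, under SCR and under siRNA.

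**Figure D4:**
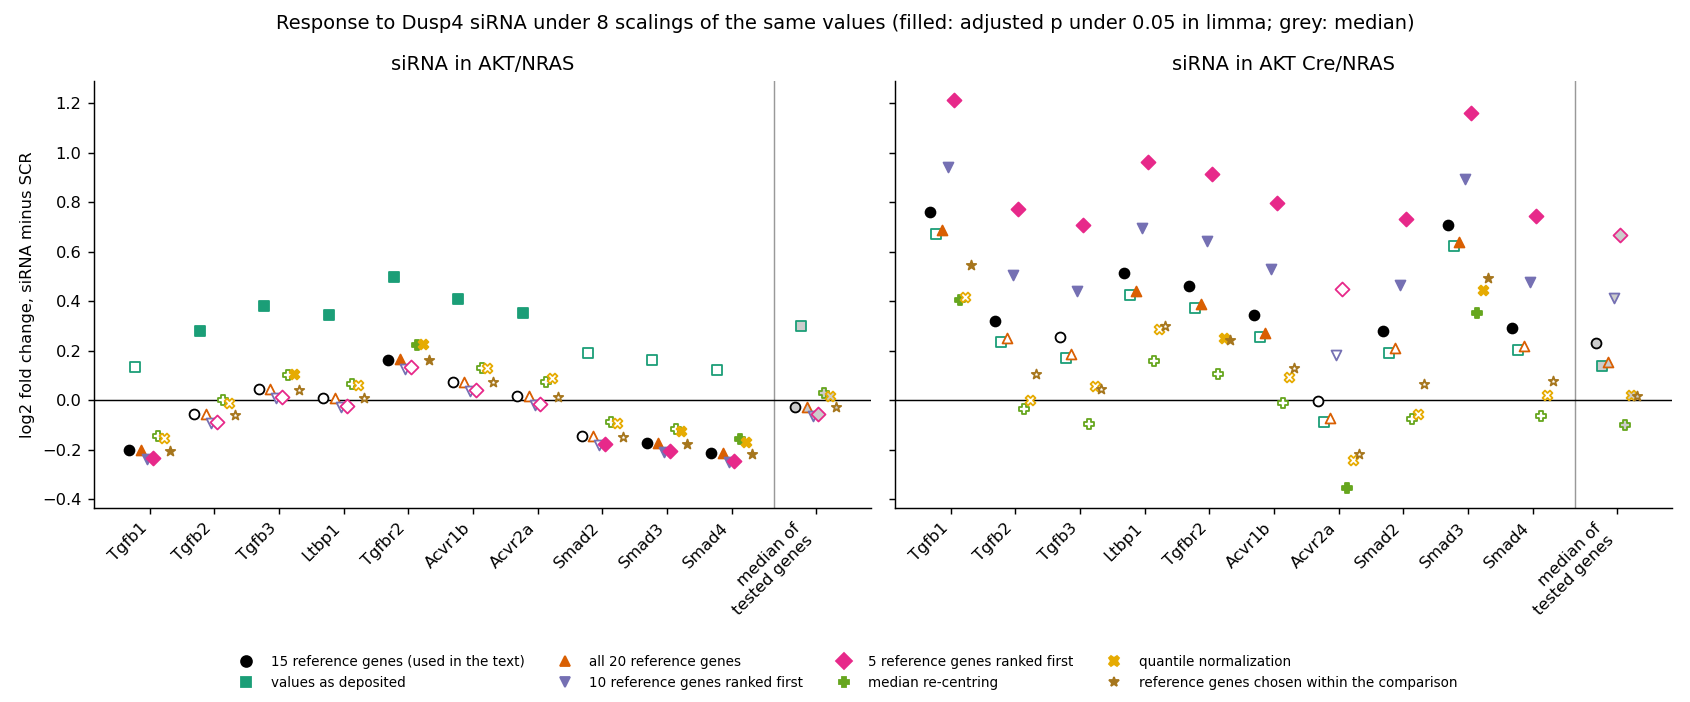
Log2 fold change after *Dusp4* siRNA (vertical axis) of each gene in both lines under 8 scalings of the same values, each with its own symbol, filled where the adjusted p was under 0.05, with the median of all tested genes in grey at the right. *Tgfb1* and *Smad3* stay above 0 in AKT Cre/NRAS under every symbol, and in AKT/NRAS the values as deposited (squares) lie above the others.

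Other ligand, receptor and SMAD genes of the superfamily on the panel mostly stood at the floor in these cells. Of 13 further ligand genes on the panel, *Bmp2* and *Bmp4* were above the floor in all 12 samples and *Bmp6* and *Bmp7* in 6 each, and the other 9 stood at the floor throughout. These bone morphogenetic proteins split between the lines, with 2 higher and 2 lower in AKT Cre/NRAS under each treatment. The panel gave 28.9% higher and 48% lower under SCR, and 36.6% and 37.9% under siRNA. *Bmp2* was lower in AKT Cre/NRAS (log2 fold change -3.15 under SCR, adjusted p = 4.40e-08, and -2.81 under siRNA) and *Bmp4* higher (0.81 under SCR, adjusted p = 3.26e-05, and 0.85 under siRNA), whereas *Bmp7* was above the floor in the AKT Cre/NRAS samples alone and *Bmp6* in the AKT/NRAS samples alone. After silencing *Bmp2*, 1 of 3 tested ligand genes, fell in AKT/NRAS by 0.36 (adjusted p = 0.0176, panel 11.9% lower). None of the 3 tested in AKT Cre/NRAS passed (panel 40.6% higher and 5.37% lower). Of the further receptors and SMADs, 2 of 5 on the panel were tested. Neither passed for silencing in AKT Cre/NRAS (panel 40.6% higher and 5.37% lower) and 1 fell in AKT/NRAS (panel 11.9%). Between the lines 1 was lower in AKT Cre/NRAS under SCR (panel 48%), while under siRNA 1 was lower and 1 higher (panel 37.9% and 36.6%).

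Of the regulators of the ligands, 3 of 7 on the panel were tested in AKT Cre/NRAS. All 3 were higher in AKT Cre/NRAS under both treatments (panel 28.9% under SCR and 36.6% under siRNA). Under SCR the log2 fold change was 3.21 for the activin antagonist *Fst* (adjusted p = 4.23e-08) and 0.94 for the decoy receptor *Bambi* (adjusted p = 0.000130). *Fst* was close to the floor of 27.1 in AKT/NRAS, with 1 siRNA sample at it. The size of its change therefore rests on values near the floor. *Thbs1*, a matrix protein that activates latent TGF-β, also passed under SCR (adjusted p = 0.00295). *Thbs1* stood at the floor in AKT/NRAS, and its AKT Cre/NRAS means, 40.3 under SCR and 43.6 under siRNA, were also close to it. Silencing lowered *Bambi* in AKT Cre/NRAS by 0.44 (adjusted p = 0.0209), while the other 2 did not pass there and neither of the 2 tested passed in AKT/NRAS.

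The nuclear partners of SMADs, 14 genes on the panel and all tested, gave 5 higher, 1 lower and 8 not called after silencing in AKT Cre/NRAS, with a median of 0.19 beside 0.23 for the panel, where 40.6% of tested genes rose and 5.37% fell. Those named by the smallest adjusted p were the acetyltransferase coactivators *Crebbp* (0.71, adjusted p = 0.00329) and *Ep300* (0.70, adjusted p = 0.00329), *Runx1* (0.57, adjusted p = 0.00355) and *Sp1* (0.46, adjusted p = 0.0112). No panel gene passed as higher in that comparison with the values as deposited. In AKT/NRAS 3 were higher and 4 lower (panel 5.44% and 11.9%), among the 4 the AP-1 genes *Fos* (fell by 0.48, adjusted p = 0.00816) and *Jun* (fell by 0.35, adjusted p = 0.00916) and *Runx1* (fell by 0.35, adjusted p = 0.0111). Between the lines under SCR 2 were higher and 9 lower in AKT Cre/NRAS (panel 28.9% and 48%). *Jun* (-3.40, adjusted p = 4.40e-08), *Fos* (-2.41, adjusted p = 3.41e-07) and *Hdac1* (-1.66, adjusted p = 1.98e-07) were among the 9.

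Of 19 textbook TGF-β target genes on the panel, 17 were tested in AKT Cre/NRAS, where 6 rose, 1 fell and 10 did not pass after silencing, with a median of 0.13 beside 0.23 for the panel and its 40.6% higher and 5.37% lower. The matrix genes *Fn1* (0.86, adjusted p = 0.00333) and *Col5a1* (0.89, adjusted p = 0.00329, with 1 sample at the floor) rose, as did *Myc* (0.40, adjusted p = 0.0175), which TGF-β is known to repress, and *Pdgfb* (0.31, adjusted p = 0.0181). In AKT/NRAS none of 14 rose and 4 fell (panel 5.44% and 11.9%), which were *Cdkn1a* (by 0.36, adjusted p = 0.00161), *Vegfa* (by 0.22, adjusted p = 0.00816), *Jun* and *Pdgfa* (by 0.24, adjusted p = 0.0111). Between the lines under SCR 5 were higher and 9 lower in AKT Cre/NRAS (panel 28.9% and 48%), the latter including *Gadd45b* (-2.68, adjusted p = 4.43e-08), *Id2* (-1.16, adjusted p = 4.39e-06) and the cell cycle inhibitor *Cdkn2b* (-0.74, adjusted p = 2.55e-05). The list holds genes, such as *Myc*, that TGF-β is known to repress beside genes that it raises. Its counts therefore give no single direction of target output. *Bambi*, *Thbs1*, *Myc* and *Jun* stand in 2 of these lists. Rises and falls after silencing in all these lists were taken under the reference gene scaling. With the values as deposited, 0 panel genes passed as higher and 1 as lower in AKT Cre/NRAS. In AKT/NRAS 287 passed as higher and 3 as lower. The named rises in AKT Cre/NRAS and most of the named falls in AKT/NRAS therefore did not pass as deposited.

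Patterns across the 12 samples were compared as the root mean square difference of centred log2 values, over 451 genes above the floor in at least 9 samples. These are descriptions, since samples of a group share their line and treatment. Nearest to *Tgfb1* were *Ep300* (0.12) and *Smc1a* (0.12), and nearest to *Smad3* were *Tsc2* (0.07) and *Nf1* (0.08). *Tgfb3* lay nearest to *Angpt1* (0.17) and *Klf4* (0.17), and *Ltbp1* to *Klf4* (0.14) and *Mtor* (0.14). *Tgfb2* was followed most closely by *Mad2l2* (0.07) and *Shc1* (0.08), *Acvr2a* by *Id1* (0.10) and *Cdkn2b* (0.12), and *Tgfbr2* by *Trp53* (0.08) and *Met* (0.09). *Acvr1b* had *Itga6* (0.08) and *Ppp2cb* (0.10) nearest to it, *Smad2* had *Gnas* (0.07) and *B2m* (0.07), and *Smad4* had *Pdgfa* (0.08) and *Edc3* (0.09). Among the 10 genes themselves the closest pairs were *Acvr1b* with *Smad4*, *Tgfb2* with *Acvr2a*, *Tgfb3* with *Ltbp1* and *Tgfbr2* with *Smad2*, at 0.14 each. The distance does not account for the spread of each gene. The SD over the 12 samples was 0.149 for *Smad2*, 0.173 for *Acvr1b*, 0.201 for *Tgfbr2* and 0.215 for *Smad4*. It was 0.391 for *Acvr2a*, 0.443 for *Tgfb2*, 1.349 for *Ltbp1* and 1.398 for *Tgfb3*. The distance of *Tgfbr2* to *Smad2* was thus close to the spread of *Smad2* itself. A small distance between genes of small spread therefore does not show a shared pattern.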

How the data were processed

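Total RNA of 12 samples was measured on the NanoString® Mouse PanCancer Pathways panel. The deposited values are a signal per probe: from the values, the authors multiplied each barcode count by a sample's own factor, which tracks its positive controls (0.827 to 1.27), and set values at or under 20 to 20. Columns are headed by run numbers, which the sample titles also give. The reference gene step named in the methods is not in the deposited signal. It was added with geNorm over all 12 samples, which kept 15 of 20 reference genes, taken as the last 20 gene rows because no file marks them, so every normalized count rests on that choice, and a shared floor of 27.1 normalized counts was then set. A gene that no sample of a comparison held above it was left out there. Log2(value + 1) was fitted per comparison with limma 3.58.1 in R 4.3.3 (intensity trend, no block) with Benjamini-Hochberg adjustment over all tested genes and a threshold of 0.05. The methods name Benjamini-Yekutieli, which is given as an alternative. Some kept reference genes themselves passed for silencing in AKT Cre/NRAS. *Hprt* (-0.46), *Nubp1* (-0.41), *Oaz1* (-0.35) and *Rpl19* (-0.61) were lower, and *Sap130* (0.54), *Abcf1* (0.52) and *Sdha* (0.44) were higher. Each fit was checked on simulated data with independent noise per gene. The simulation held no error in the sample scaling, no floor and no pairing of replicates. It therefore cannot show how the calls depend on these. No count model was fitted, since the counts of genes at the floor are not known. Recovered counts were whole within 0.05 in 100% of the low values above the floor.

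The 10 genes, the pathway and marker lists and the tests were chosen with earlier results of these data known. The genes named were the 10, *Dusp4*, *Akt1*, in each comparison up to 4 genes of a list past the threshold with the smallest adjusted p and no overlap, and for each of the 10 the 2 nearest genes. *Rpl19*, *Polr2a*, the other reference genes named and the ratios were chosen after their values were seen. Not every gene that this rule selects, and not every marker, is reported here, although the counts include them. In the silencing comparison of AKT Cre/NRAS, samples that share a replicate number deviated together (r = 0.22, 0.12 and 0.23 over 446 genes), so the numbers may pair them there, from the data and not from the labels. In the other comparisons at least 1 pair was under 0.1. Protein sequences were not used here. Promoter windows and motifs were read from RefSeq with a script in Python 3.11.15, and figures were drawn with matplotlib 3.10.9.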

Additional observations from a re-analysis of the deposited data

Results flagged for a closer look

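For 7 of the 10 genes the effect of *Dusp4* siRNA differed between the lines in the interaction test of limma over all 12 samples, in which 40.6% of 525 tested genes had a positive interaction that passed. The difference of the log2 fold changes, AKT Cre/NRAS minus AKT/NRAS, was 0.96 for *Tgfb1*, 0.88 for *Smad3*, 0.50 for *Smad4*, 0.50 for *Ltbp1*, 0.42 for *Smad2*, 0.38 for *Tgfb2* and 0.30 for *Tgfbr2*. The median of the interaction over all tested genes was 0.25. The fall of *Dusp4* itself also differed between the lines, with an interaction of 1.28. The part of that unequal silencing in these differences was not tested. *Tgfb1* and *Smad3* passed in 6 of the 7 scalings run for this comparison, the exception being the values as deposited (0.54 and 0.46). The other 5 passed in 4 of the 7. *Tgfb2* and *Tgfbr2* were below 0 as deposited (-0.04 and -0.13) and with median re-centring (-0.03 and -0.12), and *Ltbp1* no longer passed without any one of 6 samples: AKT/NRAS siRNA replicate 1 or 3, AKT/NRAS SCR replicate 1 or 2, and AKT Cre/NRAS siRNA replicate 1 or 2.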

How the results depend on the processing

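Of the 10 genes, the number that passed for silencing in AKT Cre/NRAS was 8, and it became 0 with the values as deposited, 5 with all 20 reference genes, 3 with median re-centring, 2 with quantile normalization, 3 with reference genes chosen within the comparison, 2 with no filter, 3 with Benjamini-Yekutieli adjustment, 0 with an ordinary linear model, and 3 to 8 when single samples were left out. For silencing in AKT/NRAS it was 4 (1 higher and 3 lower), and it became 6, all higher, with the values as deposited, 2 with median re-centring, 2 with no filter, 0 with Benjamini-Yekutieli adjustment, 0 with an ordinary linear model, 2 with no intensity trend, 0 with 1 fit over all 12 samples, and 0 to 3 when single samples were left out. Between the lines under SCR it was 8, all lower, and 3 with the values as deposited, with 6 lower and 2 higher both with median re-centring and with quantile normalization, and under siRNA it was 7, with 6 to 9 over every setting run. The interaction passed for 7 genes, for 0 with the values as deposited, 3 with median re-centring, 2 with quantile normalization, 3 with Benjamini-Yekutieli adjustment and 6 to 8 without single samples. Where limma passed 0 of the 10 with the values as deposited in AKT Cre/NRAS, 70 of 530 genes had an unadjusted p under 0.05. The cause of these differences was not tested. The replicate block kept 8 calls for silencing in AKT Cre/NRAS and gave 3 in AKT/NRAS, and in the other 3 comparisons it left 8, 7 and 7.

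Over the panel, limma called 204 genes higher and 27 lower for silencing in AKT Cre/NRAS, against 0 and 1 with the values as deposited, 141 and 20 with all 20 reference genes, 252 and 4 with 10, 254 and 1 with 5, 32 and 136 with median re-centring, 52 and 38 with quantile normalization and 89 and 11 with reference genes chosen within the comparison. For silencing in AKT/NRAS it called 27 and 59, against 287 and 3 with the values as deposited, 18 and 87 with 10 reference genes, 22 and 88 with 5, 47 and 41 with median re-centring and 46 and 39 with quantile normalization. Under SCR it called 149 and 247 between the lines, against 202 and 99 as deposited, 97 and 281 with 10 reference genes, 69 and 256 with 5, 59 and 259 chosen within the comparison and 224 and 181 re-centred. The interaction called 213 and 25, against 2 and 30 as deposited, 305 and 1 with 5 reference genes, 50 and 151 re-centred and 98 and 92 with quantile normalization. In both directions together, 231 panel genes passed for silencing in AKT Cre/NRAS. These became 56 with no filter, 70 with Benjamini-Yekutieli adjustment, 0 with an ordinary linear model and 99 to 297 without single samples. For silencing in AKT/NRAS 86 passed, and 45, 10, 26 and 39 to 92 did so in the same order. For the interaction 238 passed, against 101 with Benjamini-Yekutieli adjustment and 176 to 307 without single samples.

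Log2 fold changes on the other side of 0 were, for silencing in AKT Cre/NRAS, with median re-centring *Tgfb2* -0.034, *Tgfb3* -0.096, *Acvr1b* -0.012, *Smad2* -0.076 and *Smad4* -0.065, with quantile normalization *Smad2* -0.054, and *Acvr2a* 0.18 with 10 reference genes and 0.45 with 5. For silencing in AKT/NRAS they were, with the values as deposited, *Tgfb1* 0.13, *Tgfb2* 0.28, *Smad2* 0.19, *Smad3* 0.16 and *Smad4* 0.12, with median re-centring *Tgfb2* 0.00046, with 10 reference genes *Ltbp1* -0.027 and *Acvr2a* -0.020, and with 5 *Ltbp1* -0.022 and *Acvr2a* -0.015. Between the lines under SCR they were *Tgfbr2* 0.18 as deposited and 0.028 re-centred, *Smad2* 0.16 as deposited, 0.0079 re-centred and 0.013 with quantile normalization, *Acvr1b* -0.25, -0.39 and -0.49 and *Smad4* -0.22, -0.36 and -0.46 with 10, with 5 and with reference genes chosen within the comparison. Under siRNA *Tgfbr2* was 0.050 as deposited, 0.068 with all 20 reference genes, 0.030 with 5 and 0.011 with quantile normalization. The interaction was, as deposited and re-centred, -0.044 and -0.034 for *Tgfb2*, -0.21 and -0.20 for *Tgfb3*, -0.13 and -0.12 for *Tgfbr2* and -0.15 and -0.14 for *Acvr1b*, with quantile normalization -0.051 for *Tgfb3* and -0.037 for *Acvr1b*, and for *Acvr2a* 0.20 with 10 reference genes and 0.46 with 5. Without single samples, *Acvr2a* ran from -0.086 to 0.047 in AKT Cre/NRAS, from -0.049 to 0.097 in AKT/NRAS and from -0.10 to 0.048 in the interaction, *Ltbp1* from -0.041 to 0.041 and *Acvr1b* from -0.0020 to 0.12 in AKT/NRAS, and between the lines under SCR *Acvr1b* ran from -0.052 to 0.11 and *Smad4* from -0.0011 to 0.13.

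The floor limits what is known of the 252 to 293 genes per sample that stand at it, and the 10 genes were above it in all 12 samples.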
